A study of Mus musculus with 18 samples.

Results

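Receptors for glutamate and GABA, the main excitatory and inhibitory transmitters of the hypothalamus, were followed through 33 listed subunit and receptor genes on 18 arrays. The brightest probeset annotated to a single gene stood for each gene. By this rule 32 of the 33 genes were found among 19937 measured genes. Grin1, the obligate subunit of NMDA receptors, is not named in the probe annotation used and was not analysed here. Gabrb2 was the only 1 of the 32 with more than 1 probeset.

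The arrays came from hypothalami of mice on a 129 background (129SV in the sample labels, 129S6 in the series text), wild type or mutant for Wfs1, with no treatment named beyond dissection and freezing. Wfs1 encodes wolframin, a membrane protein of the endoplasmic reticulum. Each array has a title ending (ko on 10, wt on 8) and a genotype field (KO on 9, WT on 9), and they contradict each other on 9 arrays. Groups are therefore written with the ending first and the field second: 5 ko/KO, 4 wt/WT, 5 ko/WT and 4 wt/KO arrays. The labels say nothing of how the mutation was made or of the age and sex of the mice.

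Wfs1 signal ran from 7.86 to 8.72 log2 units and followed neither label, so no array was taken to be mutant or wild type. The array ko/WT 4 stood apart by a low Xist signal (5.93, against 10.31 to 10.79 elsewhere), and wt/WT 3 by a high signal of Ttr, a choroid plexus gene (12.8, against 8.01 to 10.62). The array wt/KO 1 stood apart in cerebellar genes, as described with Gabra6. Array medians lay between 7.1 and 7.19 and correlations between arrays between 0.975 and 0.991. The means of 17 hypothalamic marker genes had a median of 7.83 and a lowest of 7.28. Those of 20 genes of other organs had a median of 6.22 and a highest of 7.74, so the lists overlapped. The labels do not say that each array is a separate animal, so each p-value reflects the spread from array to array, which may be technical. The number of arrays limits the precision.

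Ionotropic glutamate receptors are tetrameric cation channels. AMPA receptors (Gria genes) carry fast excitation, NMDA receptors (Grin genes) admit calcium and need both glutamate and a co-agonist, and kainate receptors (Grik genes) act on both sides of the synapse. Metabotropic glutamate receptors (Grm genes) signal through G proteins, and GABA-A receptors (Gabr genes) are pentameric chloride channels whose subunits set GABA sensitivity, kinetics and placement inside or outside the synapse.

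Promoter sequence is shown for the members of 3 pairs whose signals moved together across arrays: Gabra3 with Gabrb1, Gria4 with Gabrb2, and Gabra5 with Gabrq. Each sequence is a RefSeq window (mouse build GRCm38.p6) from 250 bases before to 50 after the first listed start of the gene, written 5′ to 3′ on the gene's strand. Capitals mark matches to the GC box GGGCGG, the CCAAT box CCAAT or the TATA box TATAAA on either strand. The windows are Gabra3 at chrX:72656870-72657169 (minus strand), Gabrb1 at chr5:71657671-71657970 (plus), Gria4 at chr9:4796185-4796484 (minus), Gabrb2 at chr11:42420190-42420489 (plus), Gabra5 at chr7:57510010-57510309 (minus) and Gabrq at chrX:72824928-72825227 (plus).
Gabra3: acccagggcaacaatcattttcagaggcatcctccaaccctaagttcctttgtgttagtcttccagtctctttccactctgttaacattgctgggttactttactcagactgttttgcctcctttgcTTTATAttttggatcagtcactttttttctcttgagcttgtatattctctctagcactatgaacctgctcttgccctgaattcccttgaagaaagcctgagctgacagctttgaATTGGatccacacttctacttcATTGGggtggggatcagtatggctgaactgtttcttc
Gabrb1: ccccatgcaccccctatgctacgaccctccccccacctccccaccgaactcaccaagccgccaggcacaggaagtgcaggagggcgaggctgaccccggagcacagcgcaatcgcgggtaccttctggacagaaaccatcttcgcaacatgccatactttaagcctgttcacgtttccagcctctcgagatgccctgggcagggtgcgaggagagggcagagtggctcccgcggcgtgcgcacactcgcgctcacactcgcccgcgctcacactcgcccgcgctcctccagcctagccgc
Gria4: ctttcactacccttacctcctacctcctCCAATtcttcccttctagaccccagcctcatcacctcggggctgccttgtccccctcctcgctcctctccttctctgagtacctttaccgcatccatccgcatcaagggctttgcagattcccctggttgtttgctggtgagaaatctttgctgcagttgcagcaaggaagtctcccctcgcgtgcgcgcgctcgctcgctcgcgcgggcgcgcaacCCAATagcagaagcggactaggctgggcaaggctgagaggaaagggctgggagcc
Gabrb2: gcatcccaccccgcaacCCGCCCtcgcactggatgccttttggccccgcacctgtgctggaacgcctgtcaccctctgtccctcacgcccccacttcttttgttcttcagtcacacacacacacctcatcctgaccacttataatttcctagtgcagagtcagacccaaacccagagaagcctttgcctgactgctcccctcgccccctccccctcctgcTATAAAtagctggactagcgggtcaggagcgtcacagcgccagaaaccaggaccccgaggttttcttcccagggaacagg
Gabra5: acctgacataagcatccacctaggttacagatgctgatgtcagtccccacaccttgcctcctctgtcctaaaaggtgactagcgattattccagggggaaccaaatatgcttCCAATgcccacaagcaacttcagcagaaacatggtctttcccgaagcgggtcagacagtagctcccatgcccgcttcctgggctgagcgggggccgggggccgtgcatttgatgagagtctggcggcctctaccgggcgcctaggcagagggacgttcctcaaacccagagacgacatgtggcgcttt
Gabrq: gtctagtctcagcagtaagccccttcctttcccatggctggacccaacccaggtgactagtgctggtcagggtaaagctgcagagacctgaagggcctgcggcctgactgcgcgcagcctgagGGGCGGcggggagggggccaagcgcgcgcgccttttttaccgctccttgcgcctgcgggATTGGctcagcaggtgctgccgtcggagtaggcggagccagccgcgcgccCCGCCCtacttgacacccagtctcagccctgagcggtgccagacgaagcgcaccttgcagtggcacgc

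The members of the pair with the highest correlation had unlike windows. That of Gabra3 held 0 CpG dinucleotides at 43.0% G and C, while that of Gabrb1 held 25 at 66.0%. Windows were found for 23 of the 32 genes. Their median GC content was 64.7%, against 52.7% over all 32851 windows, and their median number of CpG was 17, against 7. The GC box was present in 14 of 23 (60.9%, against 35.7% of all windows), the CCAAT box in 10 (43.5%, against 37.4%) and the TATA box in 2 (8.7%, against 13.6%). Neither the cAMP response element TGACGTCA (1.79% of all windows) nor the E box CACGTG (7.15% of all windows) was found in any of the 23. None of these motifs contains another, and a match or its absence is a description of these windows only.

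Receptor genes were among the brighter signals of the arrays. The mean of 30 of 32 exceeded that of the brightest of the genes of other organs (Acta1, 7.74 log2 units), and 24 lay above the upper quartile of every array. Probesets differ in how well they bind their target, so the order that follows is one of probeset signal and not of transcript abundance. Values are the lowest, the median and the highest of 18 arrays on the log2 scale.

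All 4 AMPA receptor subunits gave a high signal. Gria2, whose edited subunit makes the channel impermeable to calcium, ran from 10.95 through a median of 11.14 to 11.30. Gria1 ran from 10.91 through 11.13 to 11.28, so its range almost matched that of Gria2. Gria4 followed at 10.54, 10.72 and 10.92, and Gria3 at 9.93, 10.21 and 10.40, which placed every Gria3 value below every Gria4 value.

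Among NMDA receptor subunits, Grin2b, the GluN2B subunit that gives slow currents, was brightest, at 9.85, 9.98 and 10.17. No other NMDA subunit reached that range. Grin3a, a subunit that lowers calcium entry, stood at 8.98, 9.13 and 9.26, Grin2a at 8.81, 9.17 and 9.26, and Grin2d at 8.75, 8.99 and 9.23. These 3 overlapped. Grin2c, which is best known from cerebellar granule cells and astrocytes, was lowest, at 8.2, 8.41 and 8.70.

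The kainate receptor gene Grik2, which encodes a principal subunit able to form channels alone, was bright at 10.14, 10.38 and 10.52. Its partner Grik5, which needs a principal subunit, ran from 9.34 through 9.60 to 9.82, below every Grik2 value. Grik3 stood at 9.13, 9.30 and 9.49. Grik4 (8.44, 8.65, 8.81) and Grik1 (8.34, 8.50, 8.71) overlapped at the lower end of the family.

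The metabotropic receptor Grm5 of group I, which is coupled to calcium release, gave 10.39, 10.58 and 10.71. Of group II, which lowers cyclic AMP, Grm3 gave 9.63, 9.95 and 10.15 and Grm2 gave 9.0, 9.29 and 9.46, with no overlap. Of group III, found mostly on presynaptic terminals, Grm7 gave 9.74, 9.91 and 10.10, Grm4 8.51, 8.74 and 9.11, and Grm8 7.90, 8.22 and 8.45. Every value of these 6 receptors therefore lay above the mean of the brightest of the genes of other organs.

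GABA-A receptor genes covered the widest span of signal. Gabrb2, a beta subunit that forms part of the GABA site, was the brightest of all 32 genes, at 11.25, 11.43 and 11.64. Its other 2 probesets averaged 11.10 and 10.15, and their correlation with the brightest was 0.75 and 0.09, so the choice of probeset matters for Gabrb2. The alpha subunits, which also shape the benzodiazepine site, were ordered Gabra3 (10.52, 10.80, 11.03), Gabra4 (10.31, 10.50, 10.84), Gabra2 (9.85, 9.995, 10.18) and Gabra5 (9.21, 9.54, 9.82), and of these neighbours only Gabra3 and Gabra4 overlapped. Gabrb1, the other beta subunit listed, lay with Gabra4 at 10.12, 10.44 and 10.67.

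Lower in the family, the gamma subunits Gabrg1 (8.74, 9.0, 9.33) and Gabrg3 (8.76, 8.94, 9.07) overlapped, the range of Gabrg3 lying within that of Gabrg1. The theta subunit gene Gabrq (8.65, 8.91, 9.17), which is known from hypothalamus and monoamine nuclei, lay in the same range. Gabrd, the delta subunit of receptors outside the synapse, ran from 7.93 through 8.40 to 8.73. The epsilon subunit gene Gabre ran from 7.42 through 7.68 to 7.96 and averaged below the brightest of the genes of other organs.

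**Figure D1:**
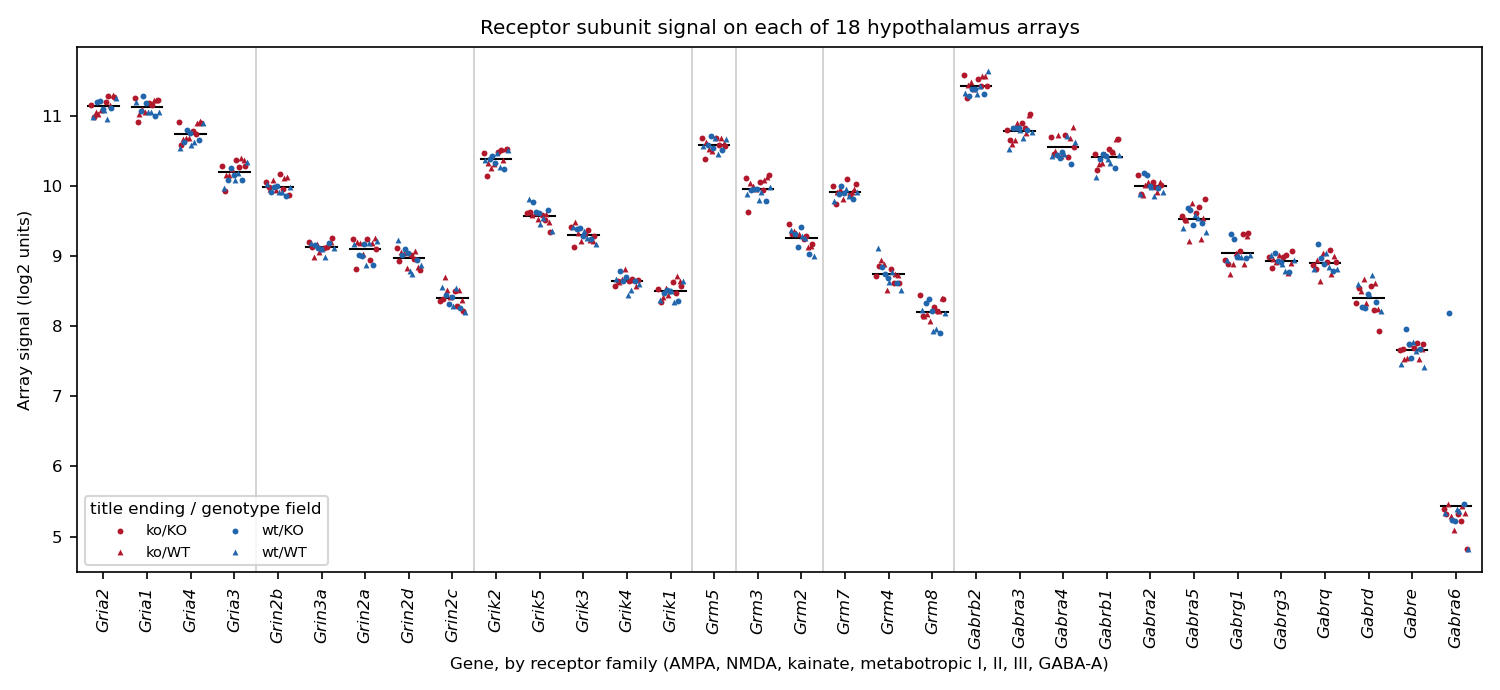
Signal of 32 receptor genes (x axis, grouped by receptor family) on 18 arrays (y axis, log2 units), with points coloured by title ending, shaped by genotype field, and a black line at the mean. Gabrb2 is highest at a mean of 11.43, and the single Gabra6 point at 8.19 is the array wt/KO 1.

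Of the 32 receptor genes, 7 had a standard deviation (SD) of 0.15 log2 units or more over 18 arrays, against 38.1% of all genes. Set against genes of like signal, within 0.5 log2 units of their own mean, 23 of the 32 had an SD above the median. Grin3a varied least (SD 0.072, n = 18), followed by Grik4 (0.085), Grin2b (0.088) and Grm5 (0.090). At the other end stood Gabra6 (SD 0.71), Gabrd (0.20), Gabrg1 (0.18), Gabra5 (0.16), Grm8 (0.16) and Grm4 (0.15). Among the genes of like signal, Gabrd was more variable than or equal to 96.2% and Gabrg1 than or equal to 93.0%, while Grin3a was so for 7.07%.

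The spread of Gabra6 came from 1 array. Gabra6 encodes the alpha6 subunit, a hallmark of cerebellar granule cells. Its signal was 8.19 on wt/KO 1 and 4.83 to 5.47 on the other 17 arrays, within the range of the genes of other organs, so that its SD was 0.19 without wt/KO 1. The gap of 2.72 log2 units to the next array was the widest of any gene on wt/KO 1, where 3 genes stood 1 unit or more above every other array.

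Markers of cerebellum moved with Gabra6 on wt/KO 1. There 7 of 10 lay above all other arrays. Cbln3, a granule cell gene, was 8.71 against 6.16 to 6.6 elsewhere, Car8, a Purkinje cell gene, 9.41 against 7.73 to 8.15, and Neurod1 8.36 against 6.45 to 7.53. The others above every array were Cbln1, Pcp2, Fat2 and En2, while Barhl1, Etv1 and Pvalb lay within the range of the other arrays. The mean level of the list was 8.50 on wt/KO 1 and 7.59 to 7.83 elsewhere, and its part in the Gabra6 signal was not tested.

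Since wt/KO 1 belongs to the groups wt and KO, it also set the Gabra6 differences by label. By the ending, Gabra6 was lower by 0.36 on ko arrays with it (-0.36) and higher by 0.01 without it. By the field the difference was 0.29 with it and -0.04 without it, and on the contradicting arrays -0.70 with it and 0.02 without it.

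**Figure D2:**
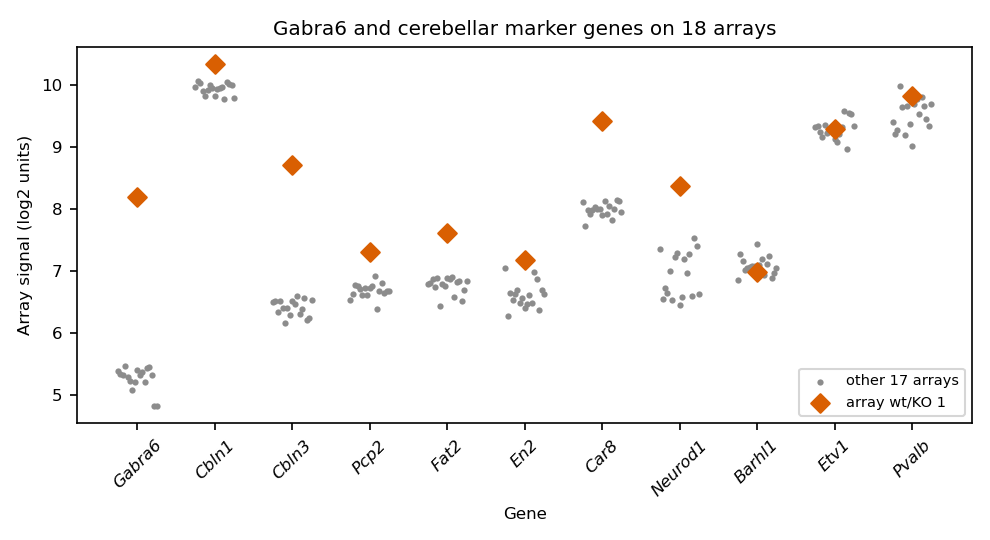
Signal (y axis, log2 units) of Gabra6 and 10 cerebellar marker genes (x axis), with wt/KO 1 as orange diamonds and the other 17 arrays as grey points. Gabra6 and 7 of the 10 markers are higher on wt/KO 1 than on any other array.

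Whether receptor gene signal differed by label was asked with limma's moderated test over all 19937 genes. No receptor gene, and no gene at all, passed a Benjamini-Hochberg adjusted p of 0.05 (percent called 0.0) by the title ending, by the genotype field, on the agreeing arrays, on the contradicting arrays or in the interaction of both labels. At an unadjusted p under 0.05, limma gave 0, 2, 1, 4 and 0 of the 32 receptor genes, where over all genes it gave 923 (4.63%), 1386 (6.95%), 2218 (11.1%), 546 (2.74%) and 1033 (5.18%). The differences below are therefore values that did not pass the test.

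By the title ending, 25 of 32 receptor genes had a higher mean on ko arrays, with a median difference of 0.03 log2 units, against 51.8% of all genes and a median of 0.00. Those with the smallest p were an astrocyte-rich receptor, Grm3, and the subunits Gabra4, Gabrb1 and Gria3. Grm3 ran from 9.63 through 10.05 to 10.15 on the 10 ko arrays and from 9.78 through 9.93 to 9.99 on the 8 wt arrays, so the groups overlapped, with a difference of 0.11 (SE 0.059, limma adjusted p = 0.884). Gabra4 ran from 10.41 through 10.62 to 10.84 against 10.31 through 10.45 to 10.71, a difference of 0.12 (SE 0.065). Gabrb1 differed by 0.11 (SE 0.063) and Gria3 by 0.10 (SE 0.061), at the same adjusted p.

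On the same arrays, 13 of 13 oligodendrocyte markers were higher with the ending ko (median 0.08), as were 10 of 12 thalamic markers (median 0.11). So were 10 of 12 astrocyte markers (median 0.05), 8 of 10 microglial markers (median 0.04) and 6 of 7 endothelial markers (median 0.03). Lower were 16 of 17 hypothalamic markers (median -0.07), 9 of 10 choroid plexus markers (median -0.11) and 18 of 20 genes of other organs (median -0.08). None of these markers passed the threshold, and their part in the receptor differences was not tested. In whole tissue, fewer cells of a type and less RNA per cell cannot be told apart.

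By the genotype field, 21 of 32 receptor genes were higher on KO arrays (median 0.03), against 47.2% of all genes and a median of -0.01. Gabre had the smallest p. It ran from 7.54 through 7.69 to 7.96 on 9 KO arrays and from 7.42 through 7.55 to 7.77 on 9 WT arrays, a difference of 0.13 (SE 0.057, limma adjusted p = 0.694). The subunit of extrasynaptic hippocampal receptors Gabra5 differed by 0.15 (SE 0.068), Gabra2 by 0.10 (SE 0.048) and Gabrd by -0.16 (SE 0.083), each with overlapping ranges and an adjusted p of 0.694. On the same arrays, 9 of 10 choroid plexus markers (median -0.11), 10 of 12 thalamic markers (median -0.07) and 16 of 20 genes of other organs (median -0.05) were lower, and 9 of 10 microglial markers were higher (median 0.06). Their part was not tested.

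Where the labels agreed, 25 of 32 were higher on ko/KO arrays (median 0.06), against 49.5% of all genes and a median of 0.00. Grm8, a presynaptic autoreceptor, read 8.45, 8.14, 8.28, 8.22 and 8.39 on the 5 ko/KO arrays and 8.23, 7.93, 7.96 and 8.19 on the 4 wt/WT arrays. The highest wt/WT arrays lay among the lower ko/KO arrays, and the difference was 0.22 (SE 0.092, limma adjusted p = 0.425). Gabra5 differed by 0.18 (SE 0.086), Gabra3 by 0.15 (SE 0.090) and Gabre by 0.13 (SE 0.084). The difference of Gabra3 was 0.09 without wt/WT 1, and that of Gabre 0.08 without wt/WT 4. On these 9 arrays 13 of 13 oligodendrocyte markers (median 0.12) and 9 of 10 microglial markers (median 0.12) were higher with ko/KO. So were 10 of 12 astrocyte markers (median 0.09) and 10 of 10 pan-neuronal markers (median 0.05). All 10 choroid plexus markers (median -0.23) and 18 of 20 genes of other organs (median -0.16) were lower, and the part of these markers was not tested.

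Where the labels contradicted each other, 16 of 32 were higher with the ending ko (median 0.00), against 53.0% of all genes and a median of 0.01. Gabra4 read 10.50, 10.72, 10.42, 10.68 and 10.84 on the 5 ko/WT arrays and 10.44, 10.40, 10.49 and 10.31 on the 4 wt/KO arrays. These overlapped through 1 ko/WT array, and the difference was 0.22 (SE 0.086, limma adjusted p = 0.9998). Gabrb2 read 11.44, 11.48, 11.38, 11.56 and 11.57 against 11.28, 11.38, 11.38 and 11.31, so that the groups met at 11.38, with a difference of 0.15 (SE 0.059). These values are from the brightest of 3 Gabrb2 probesets. The share of all genes whose groups overlap as little is not given here. Grin2a differed by 0.16 (SE 0.071) and Grm3 by 0.14 (SE 0.061), both at the same adjusted p. Beside these values, 17 of 17 hypothalamic markers were lower with the ending ko (median -0.12), while 12 of 13 oligodendrocyte markers (median 0.05) and 10 of 12 thalamic markers (median 0.15) were higher. Their part was not tested.

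Related genes gave no call either. By the title ending, 8 of 13 measured receptor relatives were higher on ko arrays, and Gabrr2, a rho subunit, had the smallest p with a difference of -0.11 (SE 0.076), or -0.07 without ko/KO 5. Of 43 measured synaptic partners, 28 were higher, led by Cacng2, the AMPA receptor auxiliary protein stargazin (0.12, SE 0.044). Of 11 measured genes of transmitter supply, 10 were higher, led by Slc17a6, the vesicular glutamate transporter of hypothalamic and thalamic neurons (0.10, SE 0.050). The limma adjusted p was 0.884 for each. Over all genes, 51.8% were higher with the ending ko. By the genotype field, 6 of 13 receptor relatives, 24 of 43 synaptic partners and 4 of 11 genes of transmitter supply were higher on KO arrays. The share over all genes by the field was 47.2%.

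Part of the receptor genes moved together across arrays. All 496 pairs of the 32 genes were compared over 18 arrays, and 70 passed an adjusted p of 0.05 (permutation test of Pearson's r, two-sided, 100000 resamples, Benjamini-Hochberg over the 496 pairs). Of these 65 were positive and 5 negative. The median r of all 496 pairs was 0.17, against 0.01 over all pairs of measured genes. An r of 0.6 or more was reached by 69 pairs (13.9%), against 4.14% of all gene pairs, and an r of -0.6 or less by 7 pairs (1.41%), against 3.07%. All gene pairs include dim genes and were not matched to the receptor genes for signal. Of the 32 receptor genes, 31 lay above the median of every array, so the shares are not read as particular to receptor genes. With Spearman's rho 69 pairs passed, and 56 passed by both measures.

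Within AMPA receptor genes 4 of 6 pairs passed, with a median r of 0.67. Within NMDA genes 1 of 10 passed (Grin2a with Grin2b), within kainate genes 1 of 10 (Grik1 with Grik2), within GABA-A genes 13 of 66, and between GABA-A and glutamate receptor genes 21 of 240 (median r 0.12).

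The pair with the highest correlation was inhibitory, Gabra3 with Gabrb1, the alpha3 and beta1 subunits (r = 0.89, rho = 0.81, adjusted p = 0.00124). Both were lowest on wt/WT 1 (Gabra3 10.52, Gabrb1 10.12) and highest on ko/KO 5 (11.03 and 10.67). Without these 2 arrays, the farthest from the median of Gabra3, r was 0.80.

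A chain of mostly excitatory subunits ran through Gria3 and Gria4. The pair Gria3 and Gria4 had r = 0.88 (rho = 0.90, adjusted p = 0.00124). Gria3 was also paired with Gabrb2 (r = 0.85), with Grik1 (r = 0.83) and with Gabrb1 (r = 0.82). Gria4 was paired with Gabrb2 (r = 0.82) and with Grik1 (r = 0.81), and Gria2 with Gabrb1 (r = 0.81). The adjusted p of these 6 pairs lay between 0.00124 and 0.00248, and r without the 2 arrays farthest in the first gene named lay between 0.72 and 0.83.

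The genes in most of the called pairs were Grm3 (11 pairs), Gria4 and Gabrb1 (10 each), then Grik1 and Grik2 (9 each). Grin3a, Grik3, Grm2, Grik4, Gabra6 and Gabrg3 were in none. Of these 6, Grin3a and Grik4 were also the genes with the lowest SD.

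Other sets were also paired, and several were linked to that chain. The GABA-A genes Gabra5, Gabrq and Gabre were paired with each other (r = 0.79 for Gabra5 with Gabrq, 0.77 for Gabra5 with Gabre and 0.73 for Gabre with Gabrq), and each of them with Gabrg1 (r = 0.66, 0.64 and 0.66 for Gabra5, Gabrq and Gabre). The delta subunit gene Gabrd was paired with Grin2c (r = 0.73) and Grin2c with Grm4 (r = 0.74). Gabra4 was paired with the NMDA subunits Grin2a (r = 0.76) and Grin2b (r = 0.69), and both Gabra4 (r = 0.77) and Grin2a (r = 0.78) with Gabrb2 of the chain. These sets were chosen after their values were seen.

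The lowest correlations centred on Gabrd. It ran against Gria2 (r = -0.78, rho = -0.82, adjusted p = 0.00496), Gabrg1 (r = -0.72, adjusted p = 0.00883) and Gabra3 (r = -0.71, adjusted p = 0.0115). Its lowest value, 7.93, was on ko/KO 5, where Gabra3 and Gabrg1 were highest, and without ko/KO 5 the pair with Gabra3 no longer passed (r = -0.61, adjusted p = 0.0676). The fourth lowest pair was Grm4 with Gabra3 (r = -0.68, adjusted p = 0.0227), which no longer passed without wt/WT 1 (r = -0.54, adjusted p = 0.111), without ko/WT 1 (r = -0.63, adjusted p = 0.0525) or by Spearman's rho (-0.60, adjusted p = 0.0590).

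**Figure D3:**
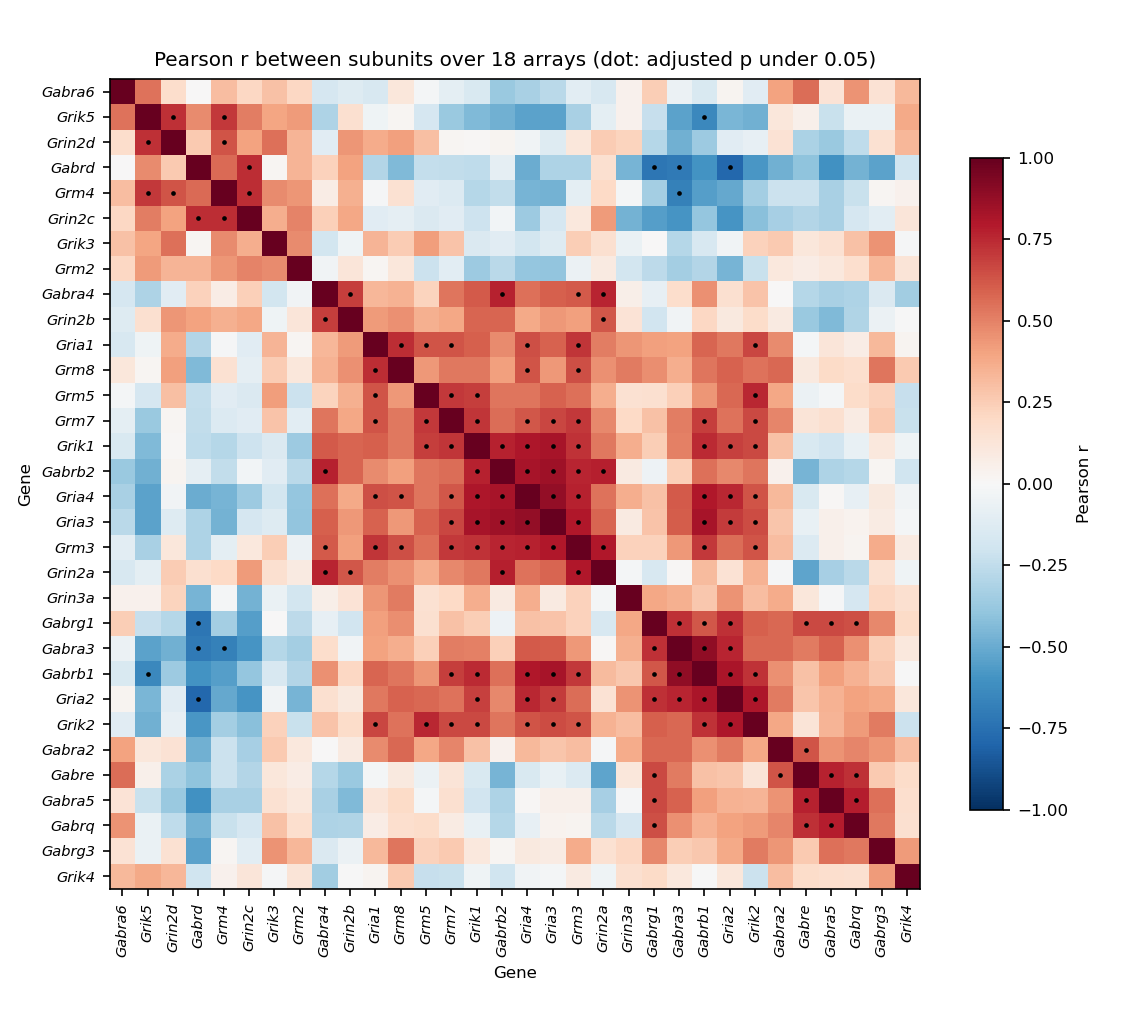
Pearson's r (colour, from -1 to 1) between each pair of 32 receptor genes over 18 arrays, with genes on both axes ordered by average-linkage clustering and a dot where the adjusted p is under 0.05. The red block holds Gria3, Gria4, Grik1, Gabrb2 and Grm3, and the blue row and column of Gabrd meet Gria2 at r = -0.78.

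Several GABA-A genes are neighbours in the genome, and closeness did not go with correlation in a uniform way. Gabre and Gabrq on the X chromosome were paired (r = 0.73), and in the cluster of chromosome 5 Gabrb1 was paired with Gabrg1 (r = 0.62, adjusted p = 0.0427). In the same cluster, Gabra4 with Gabrb1 (r = 0.45) and Gabra2 with Gabra4 (r = 0.00) did not pass, nor did Gabra5 with Gabrg3 on chromosome 7 (r = 0.55) or Gabra6 with Gabrb2 on chromosome 11 (r = -0.37). Gabra4 and Gabrb1 lie on opposite strands and their RefSeq spans overlap.

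Markers of other cells and regions moved with the receptor chain. Each of the 32 genes was compared with the mean standardized level of 12 marker lists, which gave 384 relations, of which 15 passed an adjusted p of 0.05 (permutation test of Pearson's r over 18 arrays, Benjamini-Hochberg over 384). An r of 0.6 or more was reached by 20 of the 384 relations (5.21%), against 3.83% of the relations of all genes with these lists, and an r of -0.6 or less by 14 (3.65%), against 2.3%. Neither here nor by list were all genes matched for signal. By list, 8 of 32 receptor genes (against 4.89% of all genes) reached -0.6 with hypothalamic genes and 5 of 32 (15.6%, against 3.54%) reached 0.6 with oligodendrocyte genes. With astrocyte genes it was 5 of 32 (15.6%), near the 12.7% of all genes. With endothelial genes 5 of 32 (15.6%, against 5.17%) and with thalamic genes 3 of 32 (9.38%, against 0.843%) reached 0.6. With choroid plexus genes 1 of 32 (3.12%, against 0.637%) reached -0.6. With the genes of other organs 4 of 32 (12.5%, against 8.43%) reached -0.6 and 0 reached 0.6 (against 15.9%). The hypothalamic list ran opposite to Gria4 (r = -0.87), Grik1 (-0.82), Gabrb2 (-0.81), Grm3 (-0.80) and Gria3 (-0.78), with adjusted p between 0.00307 and 0.00597. The mean standardized level of this list was lowest on ko/WT 4 (-1.13) and ko/WT 5 (-0.87), where Gabrb2 read 11.56 and 11.57. It was highest on wt/WT 2 (0.59) and ko/KO 2 (0.58), where Gabrb2 read 11.31 and 11.25. Without ko/WT 4 and ko/WT 5, the arrays farthest in that list, these 5 correlations lay between -0.85 and -0.69.

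The oligodendrocyte list went with Gabrb2 (r = 0.81, adjusted p = 0.00384) and Gria4 (r = 0.80, adjusted p = 0.00307). Its 13 measured genes averaged 9.53 on wt/WT 2 and 10.07 on ko/KO 1, the lowest and the highest array. With the mean of all 3 Gabrb2 probesets in place of the brightest, the relation of Gabrb2 did not pass (r = 0.61, adjusted p = 0.0902).

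Astrocyte markers went with Grm3 (r = 0.79), Gria3 (r = 0.76) and Gria4 (r = 0.71), with adjusted p between 0.00838 and 0.0160. An r of 0.6 or more with this list was nearly as common among all genes (12.7%) as among receptor genes (15.6%), so it is not particular to them. Without wt/WT 2 and ko/KO 2, the arrays lowest in that list, these were 0.58, 0.68 and 0.66. Leaving out ko/KO 2 alone ended the call of Grm3 (r = 0.68, adjusted p = 0.0596) and of Gria3 (r = 0.67, adjusted p = 0.0596), and leaving out ko/KO 1 that of Gria4 (r = 0.68, adjusted p = 0.0540).

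Thalamic markers went with Gabra4 (r = 0.79, adjusted p = 0.00439) and Grin2b (r = 0.73, adjusted p = 0.0176). Both subunits and the list were high on ko/WT 2 (list mean 9.48, Gabra4 10.72, Grin2b 10.08) and ko/KO 3 (9.40, 10.73 and 10.17), and low on wt/KO 4 (9.02, 10.31 and 9.85). Without ko/KO 3 the relation of Grin2b did not pass (r = 0.66, adjusted p = 0.0701), nor without wt/KO 4 (r = 0.68, adjusted p = 0.0561).

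The remaining calls were Grm8 against the genes of other organs (r = -0.82, adjusted p = 0.00307), Gria2 against choroid plexus genes (r = -0.62, adjusted p = 0.00992) and Grm3 with endothelial genes (r = 0.69, adjusted p = 0.0456). That of Gria2 did not pass without wt/WT 3, the array high in Ttr (r = -0.59, adjusted p = 0.0874). That of Grm3 and endothelial genes did not pass in 14 of the 18 fits that left out 1 array, among them that without ko/KO 2 (r = 0.64, adjusted p = 0.104). The part of these cell and region markers in the covariation of receptor genes was not tested. The spread of all values on an array also moved with receptor genes. By Pearson's r none passed the threshold (r from -0.44 for Gabrd to 0.58 for Grm3, permutation test, lowest adjusted p = 0.106). By Spearman's rho 8 of 32 passed (permutation test, adjusted p from 0.0236 to 0.0478, Benjamini-Hochberg over 32): Gabra3, Gabrg1, Gabra5, Gabra2, Gabrq, Gria2, Gabrb1 and Grm8, with rho from 0.70 to 0.58. A rho of 0.6 or more was reached by 7 of the 32, against 10.7% of all genes.

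**Figure D4:**
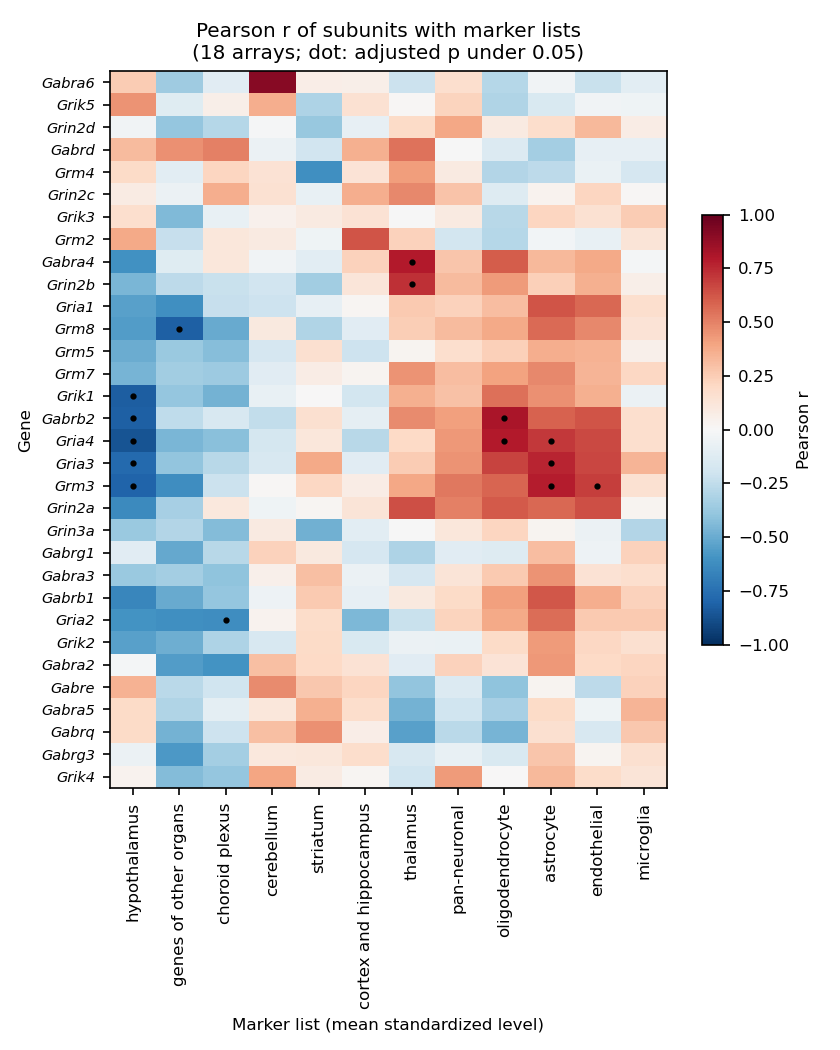
Pearson's r (colour, from -1 to 1) of 32 receptor genes (y axis) with the mean standardized level of 12 marker lists (x axis) over 18 arrays, with a dot where the adjusted p over 384 relations is under 0.05. Gria4, Grik1, Gabrb2, Grm3 and Gria3 are blue in the hypothalamus column, between -0.87 and -0.78, and the red cell of Gabra6 in the cerebellum column carries no dot and rests on wt/KO 1.

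Wfs1 signal fell into separate ranges, 7.86 to 8.07 on 10 arrays and 8.36 to 8.72 on 8 arrays, on either side of 8.2. The upper side held 6 arrays with the ending ko and 4 with the field KO. The sides thus followed neither label and are not taken as genotypes, and receptor values on them are described with no test. No receptor gene had ranges that were apart on both sides, against 3 of the 19936 genes other than Wfs1 (0.015%). The median was higher by 0.15 or more on the upper side for 5 of the 32 (3.04% of all genes) and lower by as much for 0 (2.34% of all genes).

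Gabra4 differed most between the sides. It ran from 10.31 through 10.44 to 10.71 on the lower side and from 10.45 through 10.69 to 10.84 on the upper side, a difference of medians of 0.26 log2 units. Of the 10 lower arrays, 6 lay below every upper array, and the highest was wt/WT 3 with 10.71. Grin2a ran from 8.87 through 9.02 to 9.20 against 8.81 through 9.20 to 9.26, a difference of 0.18, and its lowest value of all arrays was on the upper side, on ko/KO 2.

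Gria4 followed with medians of 10.66 and 10.84 (difference 0.18), Gabrd with 8.34 and 8.51 (0.17) and Gabrb2 with 11.38 and 11.55 (0.17). Leaving out 1 array brought the difference as low as 0.12 for Gria4 and 0.125 for Gabrd, under the cut of 0.15. It stayed at 0.15 or more for Gabra4, Grin2a and Gabrb2. For Gabrb2, 6 of the 8 upper arrays lay above the highest lower array (11.44), and ko/KO 2 was again the lowest of all at 11.25. Next came Gabre (-0.145) and Gria3 (0.145), tied in size. The difference of Gabre was -0.09 without any one of ko/WT 2, ko/WT 4, wt/KO 3 or wt/WT 4. Grin2b came close to separation: its lower side ended at 10.03 and its upper side began at 9.98. Grin2b was singled out after its values were seen.

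Markers also differed between the sides. All 13 oligodendrocyte genes had a higher median on the upper side (median difference 0.19), with list means of 9.53 to 9.87 below and 9.72 to 10.07 above. Of 12 thalamic genes 11 were higher (median difference 0.16), with list means of 9.02 to 9.33 below and 9.15 to 9.48 above. Their part in the differences of Gabra4, Gabrb2 and Grin2b was not tested.

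Within each side, no receptor gene went with Wfs1 at an adjusted p of 0.05 (64 relations, permutation test of Pearson's r on the 10 lower arrays and exact permutation test on the 8 upper arrays, lowest adjusted p = 0.341). The strongest on the upper side were Grm2 (r = 0.84, n = 8, exact permutation p = 0.0124) and Grik1 (r = -0.81, n = 8, exact permutation p = 0.00942). On the lower side they were Gabrb2 (r = -0.69, n = 10) and Gabra4 (r = -0.66). Gabra4, Gabrb2, Gria4, Gria3 and Grin2a had higher medians on the upper side but a negative r within both sides. Lower and upper r were -0.66 and -0.58 for Gabra4, -0.69 and -0.58 for Gabrb2, and -0.65 and -0.48 for Gria4. They were -0.56 and -0.71 for Gria3, and -0.46 and -0.49 for Grin2a. For Gabrd and Grin2b, also higher in median, they were 0.21 and 0.20, and 0.04 and -0.52. Without ko/KO 1, Grin2a passed on the remaining 7 upper arrays (r = -0.79, exact permutation test, adjusted p = 0.0254). By Spearman's rho Grin2a did not pass there (rho = -0.99, exact permutation test, adjusted p = 0.0508). On all 8 upper arrays its r was -0.49 (exact permutation test, adjusted p = 0.516).

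**Figure D5:**
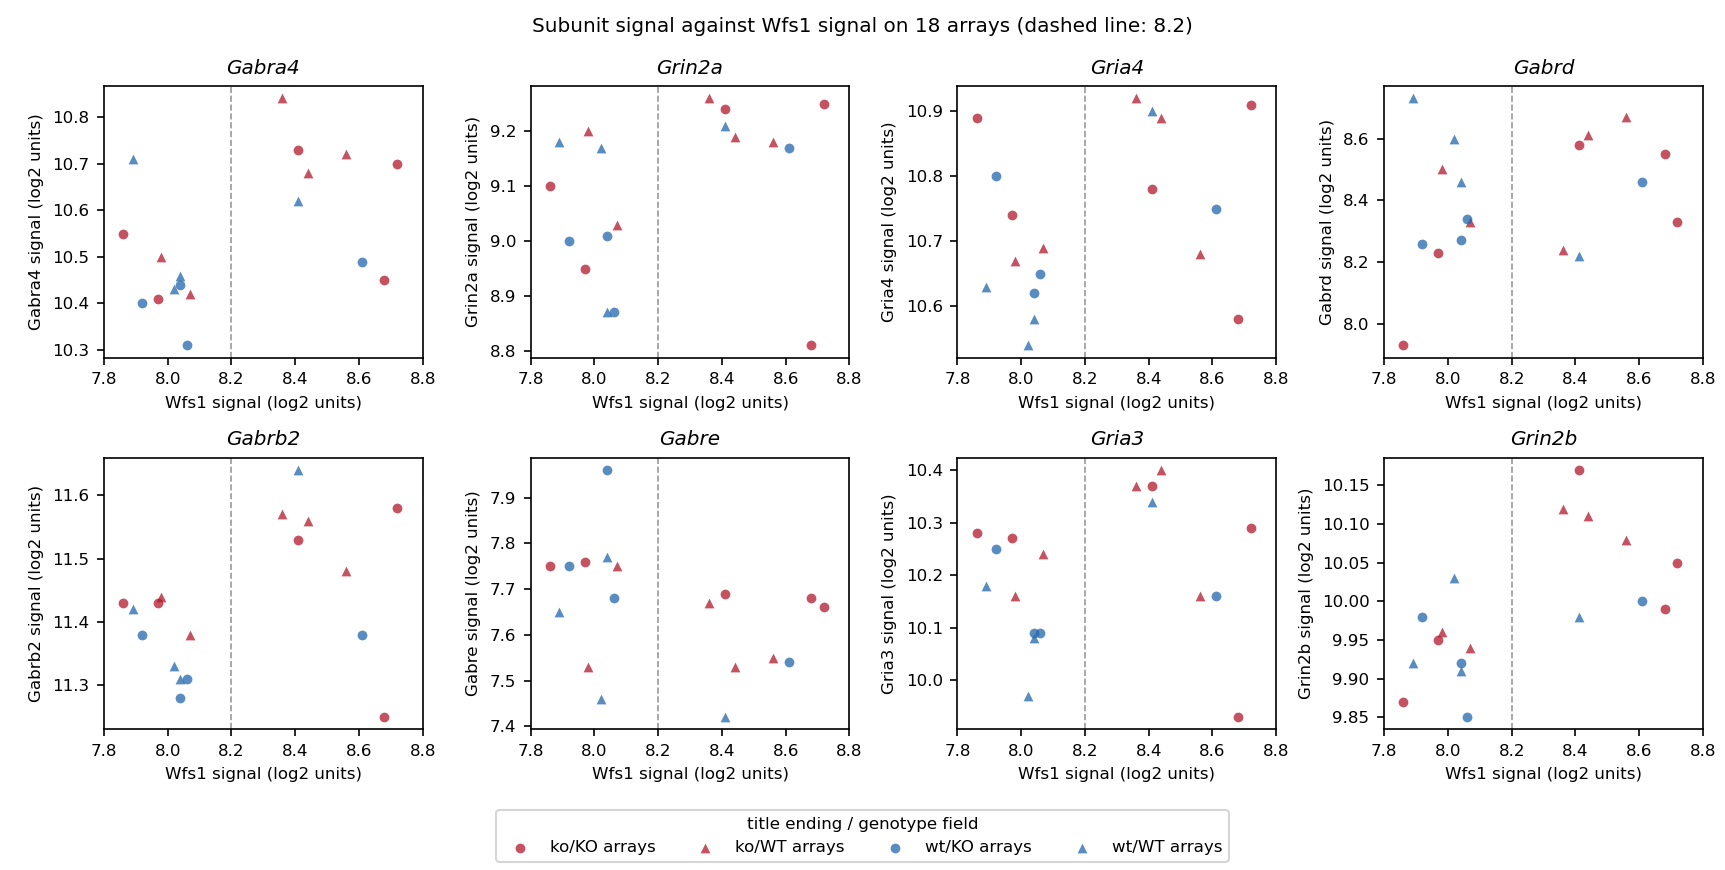
Signal of 8 receptor genes (y axes, log2 units) against Wfs1 signal (x axis, log2 units) on 18 arrays, with points coloured by title ending, shaped by genotype field, and a dashed line at 8.2. In each panel the values of both sides overlap, least for Grin2b, where the lower side reaches 10.03 and the upper side begins at 9.98.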

How the data were processed

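Gene expression in hypothalamus was measured on 18 arrays. The authors' deposited table holds log2 values of 34760 probesets, with the scale read from the values (1.11 to 14.54, 2 decimals). RMA and MAS5 are named in the submitters' processing notes, without roles. RMA sets arrays on a common distribution, which hides differences in total signal. Scanner files and scan batches were not analysed here. The platform annotation gave 21640 probesets 1 gene symbol, 1321 several and 11799 none, and only the first were used. The brightest probeset of each gene was kept. RefSeq tables of GRCm38.p6 served for names, neighbours and promoter windows.

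Label comparisons used limma 3.58.1 (lmFit and eBayes, R 4.3.3) over all 19937 genes, with Benjamini-Hochberg adjustment and a threshold of 0.05. Correlations used two-sided permutation tests in Python 3.11.15 (100000 resamples, exact for fewer than 10 arrays). Marker lists were averaged after each gene was standardized over arrays, without the receptor genes. Both procedures were tested on simulated data first.

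Differences are printed for the 4 receptor genes with the smallest p in each of the 4 comparisons by label and for the 1 gene with the smallest p in each related list. Pairs are printed for the 8 highest and 4 lowest r, spread for the 6 highest and 4 lowest SD, and Wfs1 sides for the 6 genes with the largest difference of medians, with ties. Genes, lists and tests were chosen with earlier results of these data known. Alternatives were quantile normalization, the mean of all probesets, a filter on dim genes, eBayes with trend and robust, deviations from label group means, Spearman's rho, and leaving out each array. Deviations from a line on the SD of each array were added after seeing the data.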

Additional observations from a re-analysis of the deposited data

Results flagged for a closer look

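In groups of 8 or 10 arrays with the same title ending, the gap from an extreme array to the next was set against the range of the group for each of 32 receptor genes. Of 64 such groups 8 had an array that stood apart, against 3.2 at a nominal rate of 1 in 20. The share over all genes is not given here. Receptor genes also moved together, so the 64 groups are not independent and these counts are not read as an excess. Among the 10 arrays with the ending ko, Gria3 was low on ko/KO 2 (9.93, next 10.16), as was Grm3 (9.63, next 9.94), Grik5 was low on ko/KO 5 (9.34, next 9.48) and Grik4 was high on ko/WT 3 (8.81, next 8.67). Among the 8 arrays with the ending wt, Grin3a was low on wt/WT 3 (8.98, next 9.10), Gabra3 was low on wt/WT 1 (10.52, next 10.69), Gabra6 was high on wt/KO 1 (8.19, next 5.46) and Gabrb2 was high on wt/WT 4 (11.64, next 11.42).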

How the results depend on the processing

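The counts of genes called by limma stayed at 0 in each of the 5 comparisons under every alternative tried. The count of receptor pairs past the threshold was 70, and it was 55 after quantile normalization, 78 with the mean of all probesets, 95 for deviations from the label group means, 69 with Spearman's rho and 58 for deviations from a line on the SD of each array. Leaving out 1 array gave 47 to 81 pairs. The count of marker list relations was 15, and it was 12 after quantile normalization, 14 with the mean of all probesets and 13 to 22 on leaving out 1 array. The count of receptor genes that went with Wfs1 within a side of 8.2 was 0, and leaving out 1 array gave 0 to 1, the 1 being Grin2a without ko/KO 1; the cause was not tested. The Gabra6 differences by ending, by field and on contradicting arrays changed sign without wt/KO 1 (0.01, -0.04 and 0.02). Of the 15 marker list relations, 4 no longer passed after quantile normalization: Gria3 and Gria4 with astrocyte genes (r = 0.68 and 0.62), Gria2 with choroid plexus genes (r = -0.57) and Grm3 with endothelial genes (r = 0.64). No paired analysis was possible because the number in each title belongs to a single array and pairs no arrays. Signal over background could not be examined, since no detection calls were used here, which limits Gabra6 and Gabre most.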
